A study of Mus musculus with 8 samples.

Results

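The genes described here are 8 genes that astrocytes use to take up transmitter, to handle potassium and water, and to form gap junctions. They were listed by name, with earlier results of these data known, and make up 8 of the 32285 genes in each expression matrix. Slc1a2 and Slc1a3 encode the glutamate transporters GLT-1 and GLAST, Glul encodes glutamine synthetase, and Slc6a11 encodes the GABA transporter GAT-3. Kcnj10 encodes the inward rectifier potassium channel Kir4.1 and Aqp4 the water channel aquaporin-4. Gja1 and Gjb6 encode connexin 43 and connexin 30. Their levels were described in every cell class of the mouse hippocampus, in each library and under each maternal diet, together with the open chromatin over the same genes.

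The nuclei came from the hippocampus of wild-type male pups of C57BL/6J dams at postnatal day 21. From 2 weeks before mating until the end of lactation, dams (8 weeks old per the labels) ate a purified diet with folic acid (FA) at either 2 mg/kg (MF, the conventional amount) or 20 mg/kg (HF, the excess amount). Each diet gave 2 libraries (MF1 and MF2, HF1 and HF2) of the 10x multiome assay, which reads RNA and open chromatin (ATAC) from the same nucleus. The paper calls the 2 libraries of a diet biological replicates. How many pups or litters went into a library was not stated in the sources used here, and the spread between the 2 libraries of a diet may be partly technical.

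Astrocytes clear the glutamate and GABA that neurons release. Glutamate enters through GLT-1 and GLAST, is turned into glutamine by glutamine synthetase, and is handed back to neurons as glutamine. Kir4.1 lets in the potassium that active neurons lose, aquaporin-4 sits mainly in the endfeet that wrap blood vessels, and the connexins join astrocytes into a network through which potassium and small molecules spread.

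Of 14297 deposited nuclei, 11518 (80.6%) passed the quality limits, 2249 to 3473 per library, with a median of 6117 to 7053 RNA molecules (unique molecular identifiers, UMIs) per nucleus. A total of 76 barcodes of 11442 occurred in 2 or more libraries. The classes were rebuilt from the RNA with the 8 genes left out of clustering and naming, so they may differ from those of the study. A single cluster of 1297 nuclei was called astrocyte-like (AST), from 16 astrocyte markers among its 50 leading genes. All 22 markers of that naming list (Aldoc, Aldh1l1 and Sox9 among them) were highest there among 12 classes, which the naming largely fixes. With values of libraries in the order MF1, MF2, HF1, HF2 here and throughout, AST held 179, 254, 528 and 336 nuclei, which was 6.17%, 11.3%, 15.2% and 11.6% of the library. The other classes were oligodendrocyte precursors (OPC, 574 nuclei), committed precursors (COP, 423), oligodendrocytes (ODC, 654), microglia (MG, 778), inhibitory neurons (INH, 830), pyramidal neurons of CA1 (549) and CA3 (495), mature (DG-M, 1544) and immature (DG-i, 848) granule neurons of the dentate gyrus, Cajal-Retzius neurons (134) and cycling cells (89), each so named only from its markers. Outside these 12 classes lay 1640 nuclei of unnamed clusters, 814 of mixed clusters and 704 other excitatory neurons. Leptomeningeal (122) and endothelial (23) nuclei were also outside them.

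Among the 12 classes all 8 genes were highest in AST, and in all 8 the 4 AST libraries lay above every library of the class next in order. Levels are given as CPM, the UMIs of a gene in 1000000 UMIs of the class, with the mean ± SD over the 4 libraries. Because the genes were chosen as astrocyte genes, this order is a description and was not tested. The lead of AST over the next class ran from 20.2-fold for Gja1, 20.1-fold for Gjb6, 16.3-fold for Aqp4 and 16.1-fold for Slc1a2 down to 5.66-fold for Slc1a3, 4.43-fold for Slc6a11, 2.96-fold for Glul and 1.78-fold for Kcnj10. Of the 12, the next class was COP for Gja1, Gjb6 and Aqp4. These COP levels fell when nuclei scored as doublets were left out, as given further on. Leptomeningeal cells, with only 8 nuclei in MF1, were not among the 12 classes. They held 274 ± 115 CPM of Gjb6 and 239 ± 179 CPM of Gja1. In both connexins AST led them by far less than it led COP. They also held more Slc1a3 (637 ± 258 CPM) and Glul (294 ± 124 CPM) on average than the class next in order. The leads in these genes therefore hold only among the 12. The part of doublets in the leptomeningeal levels was not tested.

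**Figure D1:**
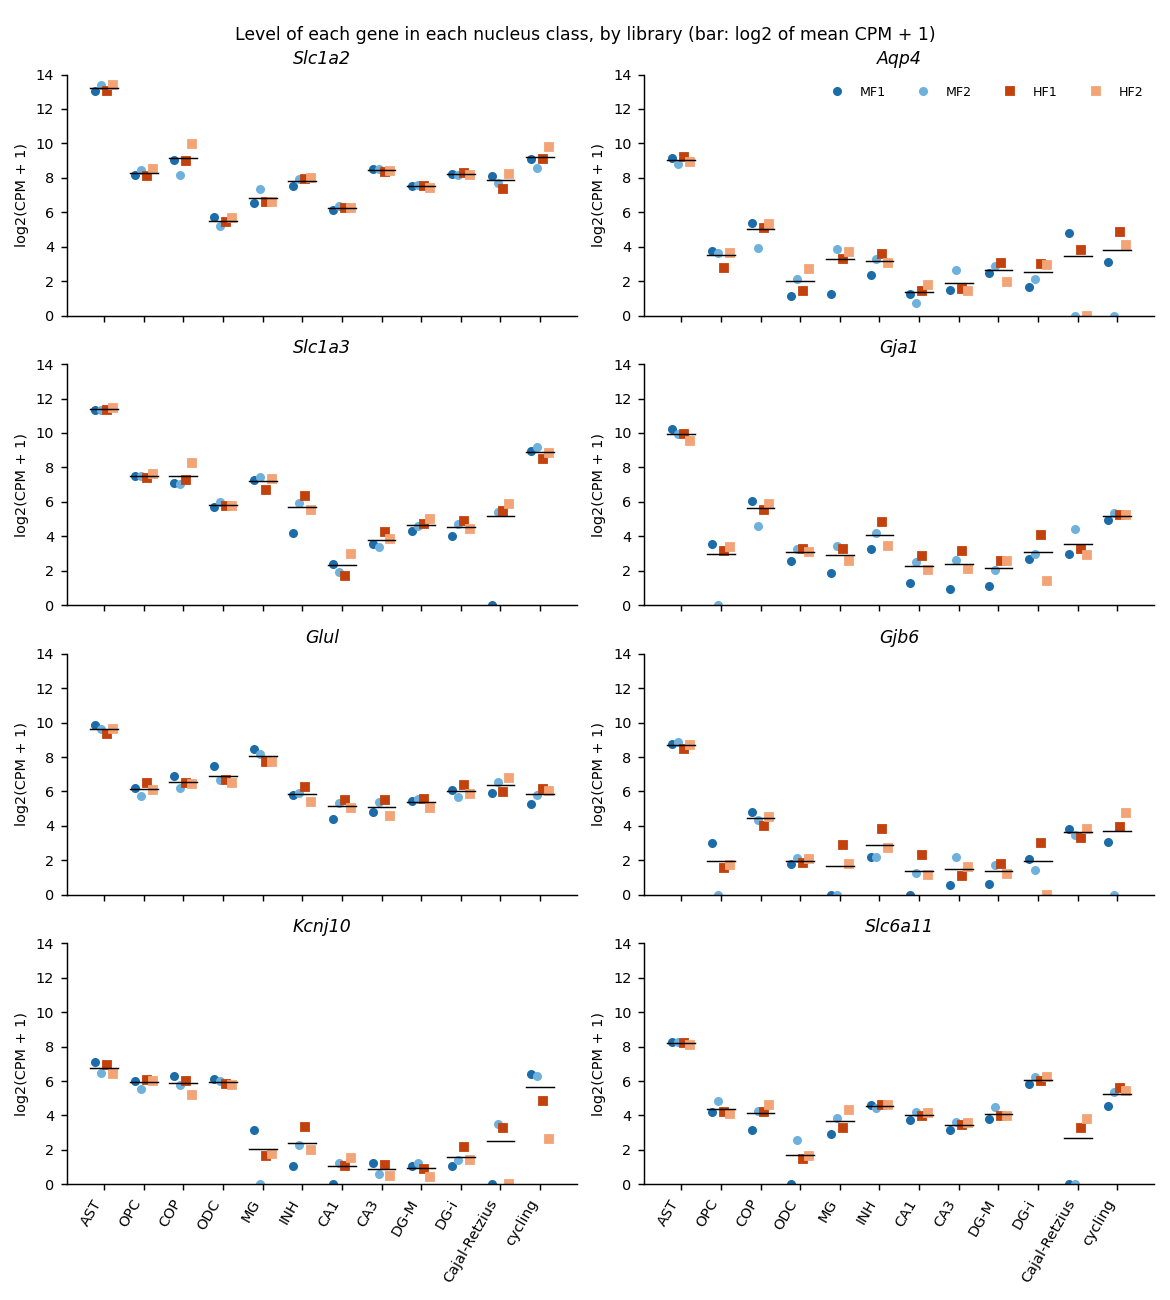
Level of each gene, as log2(CPM + 1), in each cell class, with 1 point per library coloured by library and a bar for the mean over the 4 libraries. AST holds the highest points in every panel, with Kcnj10 close behind in the oligodendrocyte lineage and Glul in microglia.

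Among the glutamate genes, Slc1a2 (chr2:102658659-102790784, + strand, GRCm38) gave the most UMIs of all 8. It reached 8562, 10544, 8521 and 10727 CPM. The libraries of both diets overlapped. The next class was the cycling cells at 597 ± 215 CPM, and the lowest was ODC at 44.4 ± 7.31 CPM. Among neurons Slc1a2 was unevenly spread, with 369, 366, 328 and 334 CPM in CA3 against 69.3, 81.4, 74.4 and 73.6 CPM in CA1, so that every CA3 library lay above every CA1 library. The 8 genes stood in another ratio in CA3 than in AST: Slc1a2 made up 84.1 ± 3.76% of their UMIs in CA3 and 62.4 ± 3.80% in AST. CA3 was alone in this among the neuron classes, as the others ran from 55.4 ± 5.69% (CA1) to 66.3 ± 2.41% (DG-M), near AST. A cluster that was left unnamed (378 nuclei, led by Cwh43, Cdh18 and Skap1), singled out after its values were seen, held 769 ± 136 CPM of Slc1a2, with 8.19 ± 2.96 CPM of Slc1a3.

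Slc1a3 (chr15:8634124-8710764, - strand) varied least between libraries in AST. Its levels were 2621, 2546, 2632 and 2771 CPM. Of the classes in the order, it was next highest in cycling cells (467 ± 91.3 CPM), which stood apart from all classes below them. COP, OPC and MG followed at 182 ± 86.1, 180 ± 11.2 and 148 ± 30.2 CPM, and their libraries overlapped between neighbours. CA1 was lowest, at 3.98 ± 2.02 CPM. Outside this order, leptomeningeal cells held 568, 1018, 492 and 468 CPM of Slc1a3, above the cycling cells in each library.

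Glul (chr1:153899944-153909723, + strand) was the glutamate gene most shared with other glia. In AST it stood at 917, 782, 644 and 789 CPM. In MG it stood at 350, 287, 209 and 213 CPM, in each library above every other class in the order but AST. ODC followed at 117 ± 40.9 CPM, and the 10 lowest classes overlapped from each neighbour to the next, down to CA3 at 33.8 ± 10.8 CPM. Outside this order, leptomeningeal cells held 189, 472, 242 and 271 CPM of Glul, above MG in MF2, HF1 and HF2. A gene on the opposite strand, Teddm2, overlaps Glul in the annotation.

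Slc6a11 (chr6:114131241-114249952, + strand), the GABA transporter, had AST levels of 302, 306, 301 and 267 CPM. The class next in order was not glial: immature granule neurons held 56.0, 74.6, 62.2 and 73.0 CPM, above every library of all other classes but AST. Cycling cells followed at 37.7 ± 10.6 CPM and INH at 22.6 ± 1.35 CPM. Its lowest level was in ODC, at 2.25 ± 2.10 CPM.

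Kcnj10 (chr1:172341210-172374085, + strand), the potassium channel, was the least restricted of the 8. AST held 138, 86.3, 119 and 83.6 CPM, from 390 UMIs in all. The oligodendrocyte lineage came close behind it, with ODC at 67.3, 64.1, 54.7 and 53.6 CPM, OPC at 59.4 ± 9.02 CPM and COP at 57.3 ± 17 CPM. These 3 classes overlapped one another, so their order was not resolved. Cycling cells overlapped them too, at 82.6, 78.9, 28.1 and 5.28 CPM, and their MF1 library lay just below the lowest AST library. MG (3.16 ± 3.45 CPM) and the neuron classes (0.866 to 4.73 CPM) were far lower.

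Aqp4 (chr18:15389496-15410982, - strand), the water channel, gave 559, 438, 593 and 476 CPM in AST. COP was next at 31.7 ± 12.1 CPM, and CA1 was lowest at 1.55 ± 0.732 CPM. The neighbours from COP down overlapped without a break, so the order of neighbours below AST was not resolved.

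Of the connexins, Gja1 (chr10:56377330-56402513, + strand) reached 1196, 978, 966 and 753 CPM in AST. COP followed at 48.2 ± 18.6 CPM and cycling cells at 36.0 ± 4.10 CPM, and the remaining 9 classes lay at 15.9 CPM or less on average. Every cycling library lay above every library of these 9 classes, whereas COP overlapped INH. Gjb6 (chr14:57123303-57133611, - strand) reached 439, 467, 358 and 411 CPM in AST and 20.9 ± 4.74 CPM in COP. The other 10 classes held 1.63 to 12.0 CPM of Gjb6.

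The COP levels moved when nuclei scored as doublets, that is, as barcodes that may hold 2 nuclei, were left out. Whether the marked barcodes do hold 2 nuclei was not tested. A doublet score above 0.05 marked 14.3% to 16.3% of the nuclei per library and 423 COP nuclei became 289 without them. Slc1a2 in COP was then 76.2 CPM instead of 576, Slc1a3 22.1 instead of 182, Aqp4 5.22 instead of 31.7, Gja1 2.89 instead of 48.2 and Gjb6 4.52 instead of 20.9. Kcnj10 in COP went the other way, from 57.3 to 82.7 CPM, as Glul in MG did, from 265 to 343 CPM. All 8 genes were still highest in AST. Its lead over the class then next was 61.8-fold for Gjb6, 47.2-fold for Aqp4, 39.4-fold for Gja1, 21.9-fold for Slc1a2, 5.15-fold for Slc1a3, 4.51-fold for Slc6a11 and 2.30-fold for Glul. For Kcnj10 it was 1.29-fold over COP, and the libraries of AST and COP overlapped.

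CPM is not scaled to gene length, so levels of different genes are set side by side per length, first over the whole gene span, since nuclear RNA holds introns, and then over the exons. Whether these UMI counts scale with either length was not tested. Per kilobase (kb) of span, Glul in AST had 80.1 ± 11.4 CPM and Slc1a2 72.6 ± 9.17 CPM, which overlapped within 1 SD. Gjb6 (40.6 ± 4.51), Gja1 (38.7 ± 7.17) and Slc1a3 (34.5 ± 1.23 CPM per kb) formed a middle group and Aqp4 followed at 24.0 ± 3.34. Kcnj10 (3.25 ± 0.797) and Slc6a11 (2.48 ± 0.150 CPM per kb) were lowest. The order depended on which length was used. Per kb of exon, Slc1a2 (730 ± 92.2 CPM) came first, followed by Slc1a3 (309 ± 11), Glul (236 ± 33.6) and Gjb6 (157 ± 17.4). Gja1 (94.9 ± 17.6), Aqp4 (82.9 ± 11.5) and Slc6a11 (58.2 ± 3.53) were lower, and Kcnj10 (19.7 ± 4.85 CPM per kb of exon) was last.

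AST supplied 3.58 ± 1.10% of all UMIs in the libraries but most of the UMIs of some of the genes. It held 62.8 ± 2.47% of the Gja1 UMIs, 62.3 ± 3.62% of Aqp4, 61.7 ± 2.63% of Gjb6, 51.8 ± 2.54% of Slc1a3 and 48.7 ± 6.58% of Slc1a2. For the other 3 genes the shares were lower, at 34.3 ± 5.0% (Slc6a11), 30.6 ± 4.28% (Glul) and 27.4 ± 4.48% (Kcnj10). The rest of the UMIs lay in all other nuclei, those of the unnamed and mixed clusters included.

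Nucleus by nucleus, the genes differed in how often they were seen. After each nucleus was thinned to 2000 UMIs (1076 AST nuclei, with 221 shallower ones left out), a UMI of Slc1a2 was present in 99.9 ± 0.116% of AST nuclei, of Slc1a3 in 98.6 ± 0.807%, of Gja1 in 81.9 ± 4.07% and of Glul in 74.6 ± 6.35%. Aqp4 was seen in 58.1 ± 3.36%, Gjb6 in 55.2 ± 4.87%, Slc6a11 in 42.9 ± 2.76% and Kcnj10 in 17.3 ± 2.82%. Without thinning the shares were 99.9%, 98.3%, 86.7%, 83.8%, 66.9%, 64.8%, 52.9% and 22.2% in the same order of genes. In CA1 neurons at the same depth the shares were 0.395% for Slc1a3, 1.11% for Gja1, 0.156% for Aqp4, 0.395% for Gjb6, 2.19% for Slc6a11, 6.06% for Glul, 15.5% for Slc1a2 and 0 for Kcnj10. The median depth before thinning was 2672 UMIs in AST and 12170 in CA1.

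A thinned AST nucleus showed on average 5.29 ± 0.194 of the 8 genes, and 75.9 ± 5.20% of AST nuclei showed 5 or more. The averages were 1.35 ± 0.0688 in cycling cells, 1.0 ± 0.0342 in OPC, 0.860 ± 0.0697 in MG and 0.258 ± 0.0648 in CA1. The 2 connexins were seen in the same nucleus about as often as their single shares multiplied: 45.1 ± 7.22% of AST nuclei held both, against a product of 45.4 ± 6.11%. Kcnj10 and Aqp4 occurred together in 9.69 ± 3.30% of AST nuclei, against a product of 10.1 ± 2.21%.

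A small cluster outside AST, singled out after its values were seen, carried most of the 8 genes in another proportion. It held 162 nuclei (29, 30, 64 and 39), was led by Gm29521, Adgrv1, Tfap2c, Veph1 and Tnc, and was left unnamed because none of its 50 leading genes was in a marker list. The astrocyte markers summed to between 7286 and 9066 CPM per library there, against 20887 to 24069 CPM in AST. Slc1a3 was at 2970, 3417, 3402 and 3777 CPM in its 4 libraries and Kcnj10 at 180, 185, 234 and 201 CPM, in both genes above all 4 AST libraries. The other genes were below AST in the unnamed cluster, with Slc1a2 at 4632 ± 963, Glul at 343 ± 65.8, Gja1 at 304 ± 69.6, Slc6a11 at 153 ± 52.0 and Aqp4 at 124 ± 13.3 CPM. Gjb6 RNA was far lower than in AST: it stood at 27.1 ± 16.5 CPM, from 13 UMIs, against 419 ± 46.5 CPM in AST. That was about the level of COP (20.9 ± 4.74 CPM), while Gja1 kept 120 UMIs in the unnamed cluster. A thinned nucleus of this cluster showed 3.74 ± 0.146 of the 8 genes.

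Leptomeningeal cells (122 nuclei, 8 of them in MF1) held both connexins but neither Kir4.1 nor much aquaporin-4. The libraries differed widely there. Gjb6 was at 189, 442, 251 and 215 CPM (149 UMIs in all) and Gja1 at 37.9, 472, 204 and 243 CPM. Slc1a3 was at 568, 1018, 492 and 468 CPM, Glul at 189, 472, 242 and 271 CPM and Slc1a2 at 189, 73.7, 437 and 824 CPM. A single UMI of Kcnj10 was found. The 23 endothelial nuclei were too few for levels: they gave 11 UMIs of Glul, 6 of Gja1 and 0 of Kcnj10.

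For each gene, the other genes with the most similar pattern were sought by Pearson's correlation of log2(CPM + 1) over 48 points (12 classes in 4 libraries), among 13687 genes. Points of one library share its depth and its free RNA, so the values are descriptions without a p. Slc1a2 was followed most closely by Sfxn5 (0.953), Prex2 (0.910) and Tspan7 (0.906), and Notch1 (0.907) and Apoe (0.864) were among the closest to Slc1a3. Gja1 was closest to Gli2 (0.908), Fgfr3 (0.906) and Acot11 (0.902), Gjb6 to Gm35552 (0.887), Grin2c (0.877) and Fam20a (0.876), and Aqp4 to AA387883 (0.869), Lcat (0.860) and Gdpd2 (0.858). Kcnj10 was closest to Sox2 (0.917), Rftn2 (0.917) and Kank1 (0.908), and Sox2 is a factor of both astrocytes and oligodendrocyte precursors. Glul was closest to Cst3 (0.876), a gene that microglia also express strongly. Slc6a11 had the weakest best match, Kcnk1 (0.799), before Prex2 (0.798) and Bcl2 (0.773). Within the 8 genes, Gja1 and Gjb6 were most alike (0.91) and Kcnj10 and Slc6a11 least (0.20).

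Other genes of the same tasks were read from 4 lists. Of 19 other genes of glutamate and GABA uptake and turnover, 9 were highest in AST. The 2 with the most UMIs in AST were Grm3 (1536 ± 222 CPM), which encodes a metabotropic glutamate receptor, and Glud1 (567 ± 108 CPM), which encodes glutamate dehydrogenase.

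Of 17 other genes of potassium, water and ion handling, 10 were highest in AST. They were led by Slc4a4 (2876 ± 389 CPM), a sodium bicarbonate cotransporter. Kcnj9, which lies 11892 bases from Kcnj10 and encodes another inward rectifier, was at 1.90 ± 0.629 CPM in AST and was highest in DG-M (37.8 CPM), so these neighbours did not share a pattern. Of the 10 genes of the dystrophin complex, which anchors channels at the endfoot, 3 were highest in AST. Dtna reached 2326 ± 343 CPM in AST and Dmd 1014 ± 150 CPM, but Dmd was highest in CA1 (2213 CPM).

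Among the 10 other connexins and pannexins, Gjb2 (connexin 26) alone was highest in AST, at 12.9 ± 6.74 CPM from 43 UMIs. Panx1 followed within AST at 3.29 ± 2.91 CPM. The oligodendrocyte connexins Gjc3 and Gjb1, named after their values were seen, stood at 712 and 52.9 CPM in ODC and at 0.698 and 0.453 CPM in AST. Beside Gja1 and Gjb6, no connexin or pannexin looked up exceeded Gjb2 in AST.

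The genes were not even within AST. When the AST nuclei were clustered again without the 8 genes, 5 subclusters arose, which are given by number and by leading genes and were not tested. AST-4 (289 nuclei, led by Myoc, Serpinf1, Nrp2, Hs3st3a1 and Unc5c) held 1145, 685, 1075 and 796 CPM of Aqp4, and the other 3 of the subclusters AST-1 to AST-4 held 400 CPM on average. The same comparison, of one of these 4 with the other 3, is used below. On the log2 scale AST-4 was higher by 1.18 ± 0.24 (SD over libraries), in 4 of 4 libraries. AST-1, AST-2 and AST-3 were close to one another in Aqp4, at 397 ± 39.4, 397 ± 49.6 and 424 ± 37.8 CPM.

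**Figure D2:**
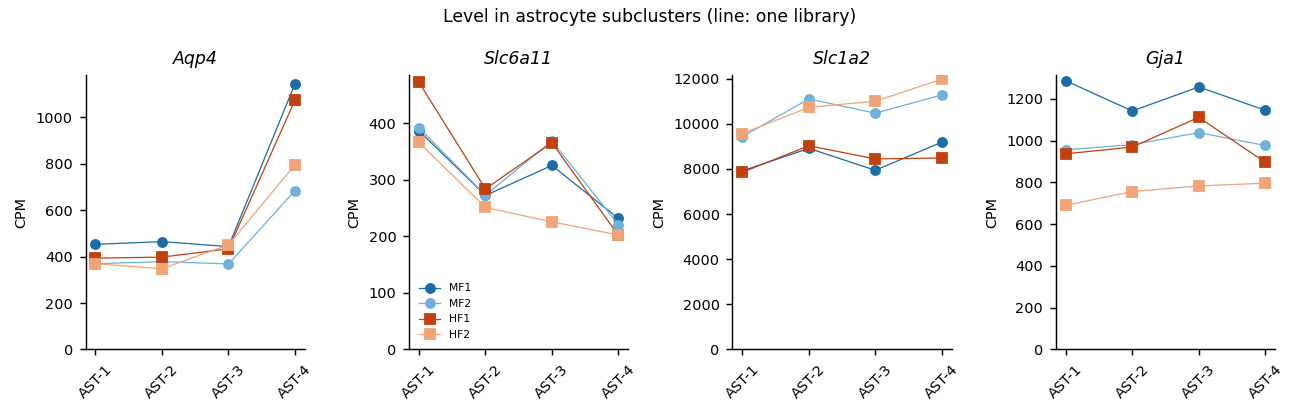
Level of Aqp4, Slc6a11, Slc1a2 and Gja1 (CPM) in AST-1 to AST-4, with 1 line per library (AST-5 is left out). Aqp4 is highest in AST-4 and Slc6a11 in AST-1 in each library, while Gja1 and Slc1a2 are close to level.

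Slc6a11 went with another subcluster. AST-1 (276 nuclei, led by Erbb4, Gm29683, Il33, Meis1 and Gabbr2) held 387, 392, 472 and 366 CPM, against 261 CPM in the other 3, a log2 difference of 0.62 ± 0.15 in 4 of 4 libraries. In AST-4, where Aqp4 was high, Slc6a11 was 214 ± 14.5 CPM, with a log2 difference of -0.58 ± 0.13 that was negative in every library. Gjb6 was also lower in AST-4 than in the other 3 (360 and 442 CPM, log2 -0.31 ± 0.15), and in 0 of 4 libraries higher. Slc1a2 was slightly lower in AST-1 (8689 CPM against 9961, log2 -0.19 ± 0.04). Gja1 and Glul differed little, with mean log2 differences between -0.04 and 0.12 in the 4 subclusters. Kcnj10 counts were too low to order the subclusters. AST-5 had 28 nuclei (1, 3, 17 and 7), led by Otx2os1, Gm29478 and Lmx1a, and AST-4 made up 14%, 21.3%, 23.9% and 25% of AST.

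Open chromatin gave a second readout, which was not used to cluster the nuclei or to name the classes. Counts of transposition events in the regions over the 8 genes and within 2 kb of them were summed per class and library (ATAC CPM, the events of a region in 1000000 events of the class in regions shared by all libraries), and AST was compared with the mean of EXC (the excitatory neuron clusters that could be named, 4140 nuclei), INH, OPC, ODC and MG by edgeR's quasi-likelihood test with the library as a block. Of 111 such regions, 73 had a peak in all 4 libraries and 64 passed the count filter. At a false discovery rate (FDR) under 0.05, 48 of these 64 (75%) were more open in AST and 1 was less open. Over all 106825 regions tested, 24.2% were more open in AST. The median log2 difference was 2.22 over the 64 regions and -0.34 over all regions. The genes were chosen as astrocyte genes, and a region could pass the count filter through its counts in AST alone. These shares and the differences below, with their FDRs, are therefore a description and not independent support.

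By gene, 14 of 14 regions tested were more open in AST for Slc1a2, 13 of 17 for Slc1a3, 1 of 1 for Glul, 6 of 8 for Kcnj10, 3 of 4 for Aqp4, 2 of 2 for Gja1, 2 of 3 for Gjb6 and 7 of 15 for Slc6a11. Most of them lay in introns, where 33 of 41 tested regions were more open in AST. All 8 tested regions at annotated transcript starts were more open in AST, but by very different amounts.

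**Figure D3:**
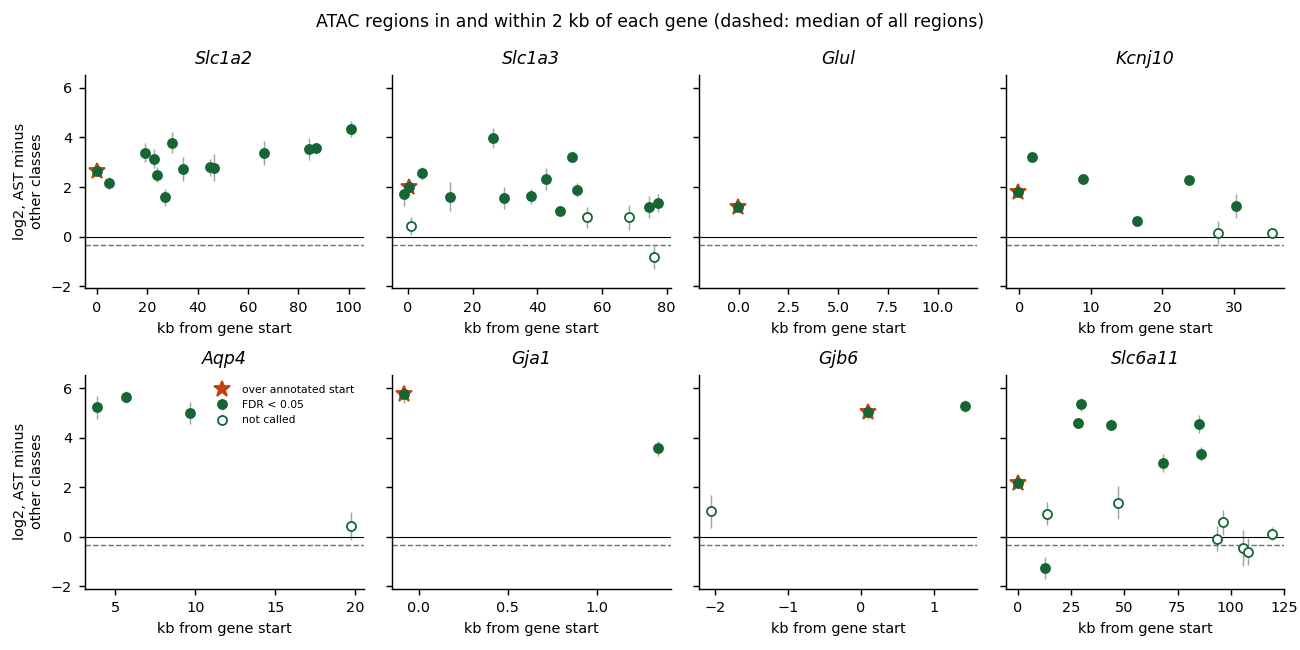
Difference in ATAC counts between AST and the mean of 5 other classes (log2) for each tested region, against its distance from the gene's start (kb). Regions over the starts of Gja1 and Gjb6 lie near 5 to 6, and those of Kcnj10 and Glul between 1 and 2.

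The starts of the connexin genes were open in AST and nearly closed in the 5 other classes compared. Leptomeningeal cells, which held RNA of both connexins, were not among these. At Gja1 (region chr10:56376821-56377681) the level was 12.3, 18.6, 25.1 and 26.3 ATAC CPM in AST, and 0 to 1.32 in the 5 other classes. The difference on the log2 scale was 5.78 ± 0.37 (SE, FDR = 7.04e-54). At Gjb6 (chr14:57133055-57133968) AST stood at 30.5, 35.1, 35.7 and 36.2 ATAC CPM and the others at 0.527 to 2.88, a log2 difference of 5.02 ± 0.25 (FDR = 2.11e-86). The starts of Glul and Kcnj10 were open much more widely. At Glul (chr1:153899483-153900366) AST had 125 ± 6.85 ATAC CPM, MG 98.0 ± 10.6, OPC 72.0 ± 12.4, ODC 71.5 ± 5.66, INH 44.2 ± 4.62 and EXC 29.4 ± 2.99, a log2 difference of 1.19 ± 0.07 (FDR = 9.57e-63). At Kcnj10 (chr1:172340626-172341536) AST had 65.5 ± 11, OPC 49.0 ± 4.30, ODC 46.8 ± 12.2, MG 22.3 ± 4.98, INH 8.74 ± 1.82 and EXC 7.24 ± 0.718 ATAC CPM, a log2 difference of 1.80 ± 0.10 (FDR = 3.91e-71).

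The 250 bases before the RefSeq start of these 4 genes are printed because they have the largest and the smallest differences at the start. They are from GRCm38, 5′ to 3′ on the strand of the gene. Capitals mark matches on either strand to GGGCGG (the GC box), CCAAT (the CCAAT box) or TGANTCA (the AP-1 motif). TATAAA (the TATA box), the E-box CAGATG and the full nuclear factor I palindrome were also searched on both strands.
Gja1 (chr10:56377050-56377299, + strand): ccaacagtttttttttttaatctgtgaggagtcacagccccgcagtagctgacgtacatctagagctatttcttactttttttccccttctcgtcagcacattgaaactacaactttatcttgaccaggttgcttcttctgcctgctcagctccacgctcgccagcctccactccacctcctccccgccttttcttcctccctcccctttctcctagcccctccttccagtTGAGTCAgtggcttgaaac
Gjb6 (chr14:57133612-57133861, - strand): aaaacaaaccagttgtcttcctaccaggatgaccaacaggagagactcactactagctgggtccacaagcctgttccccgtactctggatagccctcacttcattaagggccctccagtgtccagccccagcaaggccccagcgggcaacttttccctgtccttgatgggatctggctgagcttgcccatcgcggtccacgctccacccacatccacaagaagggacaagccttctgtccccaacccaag
Glul (chr1:153899679-153899928, + strand): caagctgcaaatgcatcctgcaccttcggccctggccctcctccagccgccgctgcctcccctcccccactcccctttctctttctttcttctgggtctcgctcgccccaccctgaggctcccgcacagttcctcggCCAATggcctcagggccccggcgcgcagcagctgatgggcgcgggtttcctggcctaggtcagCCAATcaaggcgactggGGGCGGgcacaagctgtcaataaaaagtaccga
Kcnj10 (chr1:172340960-172341209, + strand): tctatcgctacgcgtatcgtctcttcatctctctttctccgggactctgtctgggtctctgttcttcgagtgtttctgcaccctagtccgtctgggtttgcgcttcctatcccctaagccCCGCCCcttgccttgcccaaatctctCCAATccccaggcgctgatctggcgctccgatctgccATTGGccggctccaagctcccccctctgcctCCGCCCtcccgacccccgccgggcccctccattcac

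The promoters of Glul and Kcnj10 were richer in G and C (64.8% and 62%) and in CpG pairs (15 and 17) than those of Gja1 (50%, 6 pairs) and Gjb6 (56.8%, 5 pairs). The median over 32851 mouse promoters of this length was 52.4% with 6 pairs. Glul held 1 GC box and 2 CCAAT boxes, and Kcnj10 held 2 of each. The GC box occurred in 32.7% and the CCAAT box in 33.8% of all promoters. Gja1 held 1 AP-1 motif close to its start, which 6.75% of promoters held, and Gjb6 held none of the 6 motifs. TATAAA (12.4% of promoters), CAGATG (14.4%) and the nuclear factor I site (0.0365%) were in none of these 4 windows. Such a match is only a description of the letters. With 2 genes at each end, nothing can be read from this about the genes between them. The 250 bases before the annotated start of Slc1a2 had 54.8% G and C and 10 CpG pairs. Its RefSeq promoter is another stretch, with 44.8% and 1 pair, and neither held any of the 6 motifs. The RefSeq promoter of Slc6a11 had 71.2%, 25 pairs and 3 GC boxes. That of Slc1a3 had 44.8%, 2 pairs, 1 TATA box, 1 GC box and 3 CCAAT boxes.

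The remaining starts lay between these extremes. At Slc1a2 (chr2:102658395-102659336) AST had 94.3, 95.1, 103 and 96.5 ATAC CPM, above OPC (40.5 ± 5.37), INH (38.0 ± 1.38), EXC (25.2 ± 1.6), ODC (7.69 ± 1.07) and MG (4.28 ± 1.5), with a log2 difference of 2.64 ± 0.10 (FDR = 4.89e-163). At Slc6a11 (chr6:114130902-114131787) the log2 difference was 2.17 ± 0.20 (FDR = 1.33e-25) and at Slc1a3 (chr15:8710074-8710818) 1.98 ± 0.22 (FDR = 1.31e-18). The unnamed cluster was about as open as AST at the Slc1a3 start (24.7 ± 8.80 and 21.0 ± 3.92 ATAC CPM) and at the Kcnj10 start (74.5 ± 12.6 and 65.5 ± 11), but not at the Gjb6 start (12.3 ± 3.02 and 34.4 ± 2.63).

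No region covered the annotated start of Aqp4. Its most astrocyte-open region lay in an intron 5.69 kb inside the gene, with 42.3, 45.2, 47.9 and 39.8 ATAC CPM in AST and at most 2.77 in the other 5 classes, a log2 difference of 5.65 ± 0.24 (FDR = 1.98e-119).

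In Slc1a2, Slc1a3 and Kcnj10 the region with the largest difference lay in an intron and had a larger estimate than the start. For Slc1a2 the region with the largest difference (chr2:102759155-102760066) lay 101 kb inside the gene, with a log2 difference of 4.33 ± 0.32. For Slc1a3 it lay 26.3 kb inside (chr15:8683952-8684912, log2 3.97 ± 0.40). For Gjb6 it lay over an exon 1.43 kb inside (chr14:57131758-57132612, log2 5.27 ± 0.25), about 1 SE above the difference at its start. For Kcnj10 the intron region with the largest difference (chr1:172342478-172343391, log2 3.22 ± 0.10) was shared with the oligodendrocyte lineage, at 82.9 ± 8.49 ATAC CPM in AST, 79.0 ± 6.29 in OPC and 53.7 ± 4.81 in ODC but 2.36 ± 2.48 in MG and 1.35 ± 0.763 in EXC. The Kcnj10 RNA, too, was higher in these 3 classes than in MG and the neurons.

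Slc6a11 held intron regions of both kinds. Its most astrocyte-open region (chr6:114160494-114161407, 29.7 kb inside) had 40.8, 34.5, 34.2 and 36.6 ATAC CPM in AST, 5.55 ± 1.47 in ODC and 0.704 ± 0.232 in EXC, a log2 difference of 5.36 ± 0.26 (FDR = 1.17e-89). A second one (chr6:114143251-114144195, 12.5 kb inside), singled out after its values were seen, was the 1 region less open in AST. It had 0, 2.19, 1.46 and 0.958 ATAC CPM in AST and 15.5, 17.1, 15.6 and 12.9 in EXC, with CA1 (28.8 ± 6.94) and CA3 (20.0 ± 1.53) highest. Its log2 difference was -1.26 ± 0.44 (FDR = 0.0105), and the call was lost without MF1 (-0.84, FDR = 0.150), without HF1 (-1.25, FDR = 0.0550) or without HF2 (-1.09, FDR = 0.0810).
The central 300 bases of both are printed on the + strand, with the same motifs and CAGATG (an E-box that proneural factors bind) in capitals. The second stretch is labelled neuron-open only from its levels in the excitatory neurons (EXC, CA1 and CA3) given above.
Slc6a11 astrocyte-open (chr6:114160800-114161099): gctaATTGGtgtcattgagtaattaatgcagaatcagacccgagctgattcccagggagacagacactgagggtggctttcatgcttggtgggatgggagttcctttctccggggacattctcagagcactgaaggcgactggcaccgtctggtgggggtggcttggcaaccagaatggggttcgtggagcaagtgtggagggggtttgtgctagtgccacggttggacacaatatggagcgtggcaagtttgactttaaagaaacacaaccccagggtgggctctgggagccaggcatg
Slc6a11 neuron-open (chr6:114143573-114143872): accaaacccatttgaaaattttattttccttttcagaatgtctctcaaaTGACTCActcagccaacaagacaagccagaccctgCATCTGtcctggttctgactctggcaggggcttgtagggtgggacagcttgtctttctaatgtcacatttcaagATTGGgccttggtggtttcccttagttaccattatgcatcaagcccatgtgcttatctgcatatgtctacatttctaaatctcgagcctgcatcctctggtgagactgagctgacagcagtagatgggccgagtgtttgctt

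The astrocyte-open stretch held 1 CCAAT match, and the neuron-open stretch held 1 match each of the CCAAT box, the AP-1 motif and the E-box. Among the central stretches of 149295 regions, 34.7% held the CCAAT box, 14% the AP-1 motif and 35.6% the E-box, and none of the 3 is rare in open regions. GGGCGG (13.4%), TATAAA (14.8%) and the nuclear factor I site (0.0710%) were in neither stretch.

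Maternal diet was compared over libraries, 2 against 2, by edgeR's quasi-likelihood test on the summed UMIs of a class, with Benjamini-Hochberg adjustment over all genes tested. A gene was called at FDR under 0.05 and at least a 1.2-fold difference. In AST none of the 8 genes was called, and edgeR called 0 of all 9147 genes tested (0%), with 255 at an unadjusted p under 0.05. DESeq2 also called 0.

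The log2 differences (HF minus MF, ± SE) of the glutamate genes in AST were 0.05 ± 0.40 for Slc1a2, 0.10 ± 0.33 for Slc1a3 and -0.20 ± 0.30 for Glul, and that of the GABA transporter Slc6a11 was -0.07 ± 0.27. Kcnj10 differed by -0.09 ± 0.28 and Aqp4 by 0.14 ± 0.28. The connexins were lower in HF on average, by -0.30 ± 0.30 for Gja1 and -0.20 ± 0.28 for Gjb6. Single libraries moved these values: with one left out, Gjb6 ran from -0.39 (without HF2) to -0.025 (without HF1), Gja1 from -0.40 to -0.21 and Aqp4 from 0.035 (without MF2) to 0.25 (without MF1). All 8 adjusted p-values were 1.0 after rounding. The libraries of the diets did not overlap for 4 of the 8 genes, Slc1a3 (higher in HF) and Gja1, Gjb6 and Slc6a11 (lower in HF), while 27.4% of all genes tested in AST did not overlap. The standard errors of 0.27 to 0.40 come from a fit that draws on the variation of many genes. They do not measure the spread of 1 gene over its 4 libraries alone. In that fit none of the 8 differences could be told from 0.

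**Figure D4:**
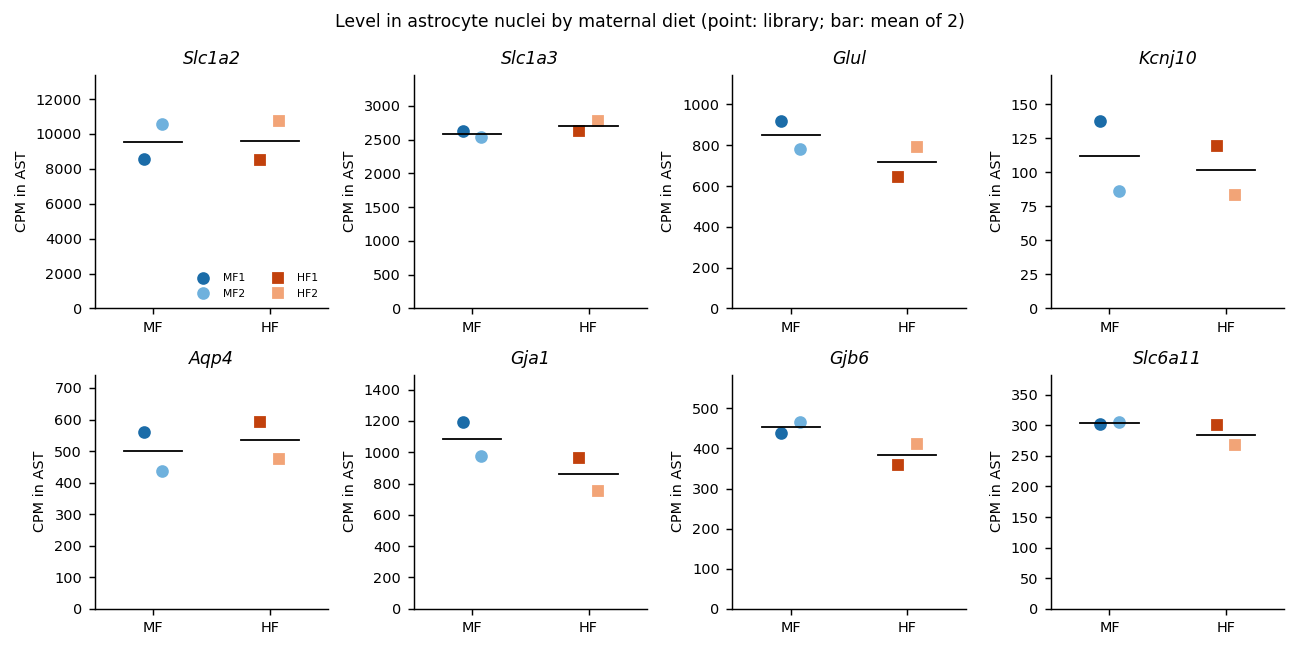
Level of each gene in AST (CPM) in the MF and HF libraries, with 1 point per library and a bar at the mean of the 2 libraries of a diet. The libraries of both diets overlap in Slc1a2, Glul, Kcnj10 and Aqp4.

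Some markers of other cells moved with single AST libraries. The summed level of 11 choroid plexus genes in AST was 22.9, 3.92, 273 and 6.69 CPM, with Clic6, Kcne2 and Tmem72 at 0, and that of 8 erythroid genes was 2592, 655, 570 and 592 CPM. HF1 was thus highest in the choroid plexus genes and MF1 in the erythroid genes. The 13 mitochondrial DNA genes summed to 6368, 6272, 5873 and 4709 CPM in AST, lower in both HF libraries than in both MF libraries. The part of these sums in the diet comparison was not tested. Without AST-5, the subcluster that HF1 supplied most of, edgeR again called 0 genes in AST, an alternative added after seeing the data.

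None of the other genes of the same tasks was called in AST either. Of 15 of 19 genes of glutamate and GABA turnover that passed the count filter, 6 were higher and 9 lower in HF, with a median log2 difference of -0.02 and 0 called. Of 15 of 17 genes of potassium, water and ion handling, 7 were higher and 8 lower, with 0 called. The 10 genes of the dystrophin complex had a median of 0.09 and 0 called, and 0 of the 10 other connexins and pannexins passed the filter. The median over all genes tested in AST was 0.01.

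Fewer of the genes could be tested in the other classes. In OPC 4 of the 8 passed the filter and 0 were called, where 0.0537% of 7449 genes were called. In ODC 4 of the 8 passed and 0 were called, with 0% of 8512 genes called by edgeR (138 at an unadjusted p under 0.05) and 0 by DESeq2. The diets did not overlap in 2 of the 4 genes in ODC, Glul and Kcnj10, against 26.1% of all genes tested there. Kcnj10 in ODC, given above, differed by -0.23 ± 0.26 on the log2 scale (edgeR, adjusted p = 1.0). Glul in ODC was at 177, 101, 99.0 and 88.6 CPM. MF1 set most of the Glul difference, which was -0.53 ± 0.29 on the log2 scale (edgeR, adjusted p = 1.0), -0.10 without MF1 and -0.84 without MF2. In EXC 7 of the 8 passed and 0 were called, with 0% of 15212 genes called by edgeR (156 at an unadjusted p under 0.05) and 0 by DESeq2. The lowest p of the 8 in EXC, under 0.05 before adjustment, belonged to Gja1, with a log2 difference of 0.94 ± 0.43 (edgeR, adjusted p = 1.0), at 1.78, 4.53, 7.15 and 4.16 CPM, so that the diets overlapped. This value depended on single libraries: it was 0.31 without MF1, 1.79 without MF2, 0.58 without HF1 and 1.21 without HF2, and it was called in none of these fits. Slc1a3 alone of the 7 did not overlap between diets in EXC (17.9, 20.0, 24.4 and 23.0 CPM), against 21.1% of all genes tested there. Its log2 difference was 0.40 ± 0.19 (edgeR, adjusted p = 1.0), and with one library left out it ran from 0.25 (without MF1) to 0.54 (without MF2). The 22 astrocyte naming markers summed to 325, 392, 425 and 403 CPM in EXC, and the 11 choroid plexus genes to 34.0, 20.9, 94.2 and 21.7 CPM. Both sums were highest in HF1, and the astrocyte sum was lowest in MF1, as Gja1 was. Their part in the Gja1 and Slc1a3 differences in EXC was not tested.

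**Figure D5:**
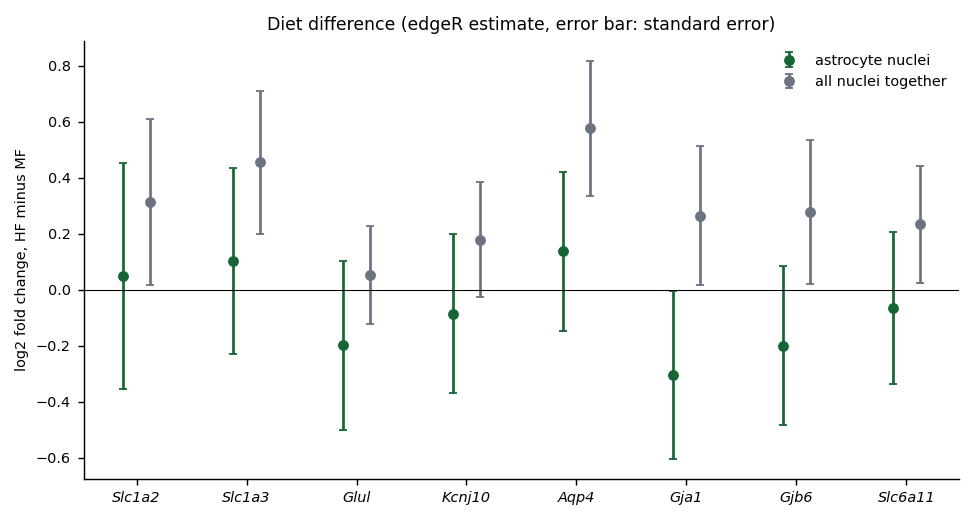
Difference between HF and MF libraries (log2, edgeR) for each gene in AST and in all nuclei together, with standard errors. In all nuclei the 8 estimates lie above 0, while in AST they lie on both sides of 0.

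When all nuclei of a library were summed, as a bulk sample would be, the 8 genes leaned one way. All 8 were higher in HF, with a median log2 difference of 0.27 against 0.01 over all 18373 genes tested. None was called, edgeR called 0% of the genes tested in all nuclei (199 at an unadjusted p under 0.05) and DESeq2 called 0. Aqp4 had the largest value: 19.8, 28.4, 43.5 and 26.5 CPM, a log2 difference of 0.58 ± 0.24 (edgeR, adjusted p = 1.0, under 0.05 before adjustment). HF1 was highest and MF1 lowest, and the diets overlapped. In 0 of the 8 genes did the libraries of the diets lie apart, against 18.3% of all genes tested in all nuclei. HF1 was the highest library in all 8 genes. MF1 was the lowest in 6, and HF2 in Glul and Kcnj10. The share of AST nuclei was lowest in MF1 (6.17%) and highest in HF1 (15.2%), and its part in these sums was not tested. In such sums fewer astrocytes and less RNA per astrocyte cannot be told apart, and within AST the Aqp4 difference was 0.14 ± 0.28.

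A single library decided the call of Aqp4 in all nuclei. Without MF2 its log2 difference was 0.93 ± 0.24 and it was called (edgeR, adjusted p = 0.0213), whereas it was 0.28 without MF1, 0.27 without HF1 and 0.82 without HF2, each without a call. Slc1a3 in all nuclei ran from 0.10 without MF1 to 0.90 without MF2, also without a call. Without MF1 or HF1 several of the 8 differences in all nuclei changed sign. The values of Slc1a3 (0.45 ± 0.26), Slc1a2 (0.31 ± 0.29), Gjb6 (0.28 ± 0.26), Gja1 (0.26 ± 0.25), Slc6a11 (0.23 ± 0.21), Kcnj10 (0.18 ± 0.21) and Glul (0.05 ± 0.17) in all nuclei were each within 2 SE of 0.

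Open chromatin in AST was compared between diets over 53 regions of the 8 genes. None was called, edgeR called 0% of the 53212 regions tested in AST (1714 at an unadjusted p under 0.05) and DESeq2 called 0. The libraries of the diets did not overlap in 18 of the 53 regions, against 31.1% of all regions tested in AST. Of the 53 regions, 2 had an unadjusted p under 0.05. The start of Gja1, described above, was more open in both HF libraries than in both MF libraries, with a log2 difference of 0.71 ± 0.30 (edgeR, adjusted p = 1.0), while the Gja1 RNA was lower in both HF libraries. The value at the Gja1 start was 0.49 without MF1 and 1.09 without MF2, and it was called in neither. An intron region of Slc6a11 (chr6:114174401-114175299) had 52.6, 35.6, 26.6 and 32.1 ATAC CPM, a log2 difference of -0.55 ± 0.24 (edgeR, adjusted p = 1.0), which was -0.26 without MF1 and -0.82 without MF2.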

How the data were processed

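The matrices of RNA and ATAC of 4 libraries (2 MF, 2 HF) were used as deposited. The submitters' processing notes name Cell Ranger ARC 2.0.1 and mm10. Their values are raw counts, per the labels and the whole-number values: UMI counts per gene, and counts of transposition events per peak, with peaks called in each library. Replicates were not pooled. Groups and replicate numbers were taken from the labels.

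A nucleus was kept if it showed 500 to 7000 genes, if mitochondrial UMIs made up less than 2% of its RNA and if its ATAC counts lay between 1000 and 70000. Libraries then held 20151562 to 29243072 UMIs and 54182160 to 64146921 ATAC counts. Scrublet scores (scanpy 1.11.5, expected rate 0.03) marked doublets. Clusters with a median score over 0.05 (814 nuclei) were set apart as mixed and entered no class, though they stayed in the sums over all nuclei. Single nuclei over that score in the other clusters stayed in the main analysis. An alternative left out every nucleus with a score over 0.05. Scrublet's automatic threshold marked 0 to 22.0% per library. Clusters came from 3000 variable genes, 20 components, 20 neighbours and Leiden (0.10.2) at resolution 0.8. Clustering did not use the 8 genes or 134 more. Those 134 were genes with haemoglobin, mitochondrial or ribosomal protein name prefixes, sex-linked genes, and Ttr, Ptgds, Gm42418 and AY036118. A cluster was named from at least 3 markers among its top 50 genes. Levels were given for 12 classes with at least 10 nuclei in every library. Intervals and low counts cover counting error only.

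UMI and ATAC counts were summed per class and library and tested by edgeR 4.0.16 (quasi-likelihood, TMM, filterByExpr, R 4.3.3), with FDR under 0.05 and at least 1.2-fold for genes. Nuclei were not treated as replicates. Merging overlapping peaks of the libraries gave 253748 regions, of which 154785 were covered in every library. Of these, the count filter left 106825 for the test between classes and 53212 for the test between diets. The scripts were checked on simulated data. Alternatives were DESeq2 1.42.0, RLE scaling, omission of the count filter or of the fold minimum, a replicate block, leaving out single libraries or doublets, another resolution and the 8 genes used for clustering. Gene spans were taken from GENCODE M21 and promoter sequences from RefSeq (GRCm38), which held 7 of the 8 genes. Named genes were, beside the 8, the 2 most abundant in AST of each list, 3 neighbours in the genome, the 3 most similar genes, the start and most astrocyte-open regions and the 5 leading subcluster genes. Some genes that this rule names are not reported here. The genes, lists and tests were chosen with earlier results of these data known.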

Additional observations from a re-analysis of the deposited data

How the results depend on the processing

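Among the named classes the 8 genes were highest in AST under the alternatives run, although without doublets AST and COP overlapped in Kcnj10, and the unnamed cluster described above exceeded AST in Slc1a3 and Kcnj10. With TMM effective library sizes their AST levels moved by less than 1 SD except for Slc1a3, at 2747 CPM. Thinned to 1000 UMIs, the shares of AST nuclei with a UMI were 99.7% (Slc1a2), 88.7% (Slc1a3), 59.5% (Gja1), 50.9% (Glul), 37.4% (Aqp4), 34.1% (Gjb6), 25.1% (Slc6a11) and 8.98% (Kcnj10). With Spearman's correlation 6 of the 24 most similar genes were shared. With no low-count filter edgeR called 11 genes between diets in AST, 16 in ODC, 7 in EXC, 18 in all nuclei and 2 regions in AST. In OPC, DESeq2 and leaving out doublets each called 0. With one library left out, where the lone library of a diet is assumed to vary like the others, the genes called ranged from 3 to 8 in AST, 1 to 9 in OPC, 0 to 79 in ODC, 1 to 22 in EXC and 0 to 110 in all nuclei, and the regions in AST from 2 to 47. In these runs the log2 difference crossed 0 in AST for Slc1a2 (-0.22 to 0.29), Slc1a3 (-0.017 to 0.22), Glul (-0.44 to 0.016), Kcnj10 (-0.34 to 0.20) and Slc6a11 (-0.14 to 0.017), and in all nuclei for Slc1a2 (-0.029 to 0.75), Glul (-0.078 to 0.19), Kcnj10 (-0.11 to 0.41), Gja1 (-0.095 to 0.61), Gjb6 (-0.11 to 0.79) and Slc6a11 (-0.063 to 0.59). In all 125 other fits of the 8 genes in AST and in all nuclei, of Slc1a3 and Gja1 in EXC and of Glul in ODC, the sign and the lack of a call were as given. Kcnj10 in ODC was not among these fits. The cause of these changes was not tested. With 2 libraries per diet and 179 AST nuclei in MF1, differences of the size found could not be resolved.

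Replicate numbers are shared by the labels of both diets, but nothing ties libraries of one number to a shared batch, and with 2 pairs the correlation of deviations (0.196 to 0.221) does not show pairing. With a replicate block edgeR called 14 genes in AST, 7 in OPC, 12 in EXC, 21 in all nuclei and 2 regions in AST, and none of the 8 genes.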
